A study of Homo sapiens with 4 samples.

Results

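The genes described here are 9 cancer genes of the short arm of human chromosome 3 (3p), out of 57820 genes listed in the count files: FANCD2, VHL, XPC, TGFBR2, CTNNB1, SETD2, RHOA, RASSF1 and PBRM1. They were known cancer genes selected on the CPM values (counts scaled to a common library size) of library tKO 2 against the dKO libraries, as members of a part of 3p with lower levels in tKO 2. The choice was made after that stretch had been seen, and BAP1 itself was left out. Their lower level in tKO 2 is therefore what chose them and is given as a description. Library tKO 1 played no part in the choice. The dKO libraries did, so the test of tKO 1 against dKO is not wholly free of the selection. All 9 genes passed the filter on low values that left 15136 genes for testing.

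The 4 RNA-seq libraries came from HAP1, a nearly haploid human cell line, without treatment. In the dKO group (libraries dKO 1 and dKO 2) RING1A and RING1B, the catalytic subunits of Polycomb repressive complex 1, had been inactivated. In the tKO group (libraries tKO 1 and tKO 2) the deubiquitinase BAP1 had been inactivated as well, so all 4 libraries share the loss of RING1A and RING1B. A STOP cassette inserted into the gene interrupted BAP1 and RING1A, and the cells with RING1B inactivated were bought as a knockout line, so each genotype stands for selected clones. The methods of the study speak of independent biological replicates, and the labels do not say whether the replicates of a genotype are separate clones.

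Between 16054590 and 18455410 reads were assigned to genes per library. BAP1 gave 2046 and 2010 counts in dKO 1 and dKO 2, and 158 and 107 in tKO 1 and tKO 2, a log2 fold change of -3.77 ± 0.19 (SE, limma, adjusted p = 0.0065). RING1 (RING1A) had 12 to 17 counts in every library, while RNF2 (RING1B) kept 1102 to 1561 counts, so its transcript level does not show its inactivation. The HAP1 fusion partners BCR and ABL1 were both detected. ABL1 had 746 and 643 counts in the dKO libraries, 360 in tKO 1 and 1017 in tKO 2, so the tKO libraries lay on opposite sides of dKO. Among markers of other cell types, ALB reached at most 6 counts in a library, PTPRC and DCN at most 1, and SPI1, CD3E and HBG1 were at 0 throughout.

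The short arm of chromosome 3 is one of the regions most often lost in human cancers, above all in clear-cell kidney carcinoma, and it carries several tumour suppressors close together. VHL, SETD2 and PBRM1 are the kidney cancer suppressors of 3p besides BAP1. VHL is the part of a ubiquitin ligase that recognises hydroxylated hypoxia-inducible factors (HIF), SETD2 trimethylates lysine 36 of histone H3, and PBRM1 is the polybromo subunit of the PBAF chromatin remodeller. RASSF1 is a scaffold of Hippo signalling that tumours often silence by promoter methylation. FANCD2 and XPC act in DNA repair, the first at crosslinks in the Fanconi anaemia pathway and the second as the damage sensor of global nucleotide excision repair. RHOA is a small GTPase of the cytoskeleton, CTNNB1 encodes beta-catenin, the effector of WNT signalling, and TGFBR2 is the type II receptor for TGF-beta. CTNNB1 is an oncogene rather than a suppressor, and RHOA is mutated in some lymphomas and gastric cancers.

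On GRCh37, the build of the counts, the 9 genes spread over 42.65 Mb. Ordered from the short-arm end, FANCD2 lies at chr3:10068054-10143616 on the plus strand and VHL at chr3:10183462-10195351 on the plus strand. XPC is at chr3:14186647-14220121 on the minus strand, TGFBR2 at chr3:30648093-30735634 on the plus strand and CTNNB1 at chr3:41236232-41301587 on the plus strand. SETD2 at chr3:47057918-47205603, RHOA at chr3:49396572-49450431, RASSF1 at chr3:50367213-50378411 and PBRM1 at chr3:52579368-52719933 are all on the minus strand. FANCD2 and VHL are close together with 1 expressed gene, BRK1, between them, and SETD2, RHOA, RASSF1 and PBRM1 form a second group near BAP1, which starts at 52435024.

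The start regions of the genes were described by their CpG, a feature the selection did not use. The RefSeq promoter table (GRCh38.p14) had an entry for 8 of the 9 genes, in 10 windows of 300 bases, from 250 bases before the start to 50 after it. The ratio of observed to expected CpG ran from 0.623 to 1.101 and was at least 0.6 in 10 of 10 windows, against 48.9% of all 35116 windows. All windows were counted whether or not their gene was expressed. The 9 genes had passed the expression filter, so no trait particular to them is read from this. The GC content ran from 42.3% to 82.3%, against a median of 58.7% over all windows. The lowest ratio and the lowest GC content belonged to the same TGFBR2 window, which held 8 CpG. On either strand, TATAAA occurred in 1 window, that of RHOA (11.5% of all windows hold it), CCGGAAG in 1 window, that of FANCD2 (10.3% of all), and CCAAT in 5 windows (34.6% of all). A match of letters is a description of the window, not a binding site. For 3 genes at different distances along the arm, the 100 bases before a RefSeq start are printed below 5′ to 3′ on the gene's own strand, to show how the density of CpG (in capitals) varies among genes with similar shares of dKO in tKO 2 (52.8% to 57.1%). The sequences are from RefSeq, and their positions are those of their exact match in GRCh37: chr3:30647993-30648092 (plus strand) for TGFBR2, chr3:47205604-47205703 (minus strand) for SETD2 and chr3:52719616-52719715 (minus strand) for 1 of the 2 PBRM1 windows. That PBRM1 stretch lies inside the annotated gene, in no annotated exon, since the start it precedes is downstream of the outermost one.
TGFBR2: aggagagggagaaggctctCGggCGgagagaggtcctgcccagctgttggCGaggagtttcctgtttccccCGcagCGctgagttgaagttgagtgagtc
SETD2: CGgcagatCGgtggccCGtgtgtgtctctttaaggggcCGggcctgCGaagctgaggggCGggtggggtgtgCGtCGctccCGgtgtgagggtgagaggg
PBRM1: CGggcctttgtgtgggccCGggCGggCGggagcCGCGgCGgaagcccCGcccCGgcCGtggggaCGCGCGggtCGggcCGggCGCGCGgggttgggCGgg
The stretches hold 5 CpG for TGFBR2, 9 for SETD2 and 19 for PBRM1.

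Levels are given below in CPM, from raw counts and library sizes scaled by TMM. The percent of dKO is the CPM of a tKO library over the mean of dKO 1 and dKO 2, with an exact 95% interval that covers counting error only. In bulk RNA, a lower level in every cell and the absence of a transcript from some of the cells cannot be told apart.

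In tKO 2 the 9 genes stood between 45.2% and 60.8% of their dKO mean, with a median of 53.2%, whereas in tKO 1 they stood between 79.9% and 115.9%, with a median of 101.3%. All 9 were below both dKO libraries in tKO 2. That holds for 36.9% of all tested genes, and here the selection fixed it. In tKO 1 the count was 2 of 9 below both dKO libraries (TGFBR2 and RASSF1), against 35.2% of all tested genes. Above both were 4 of 9. The share of all tested genes above both was not computed, so nothing is read from those 4. Over all tested genes the median share was 100.4% in tKO 2 and 99.98% in tKO 1. The summed level of the 9 genes was 1846 and 1830 CPM in the dKO libraries, 1919 in tKO 1 and 941.3 in tKO 2.

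**Figure D1:**
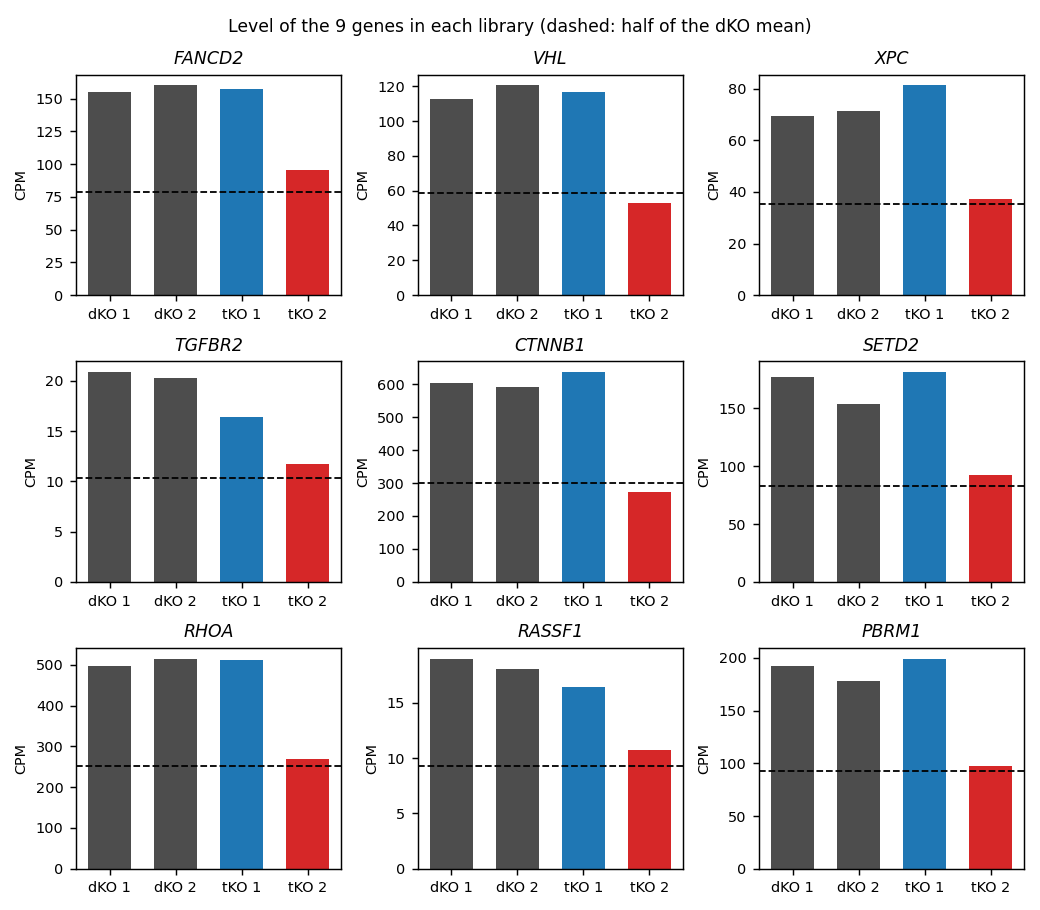
Level of each of the 9 genes in CPM (vertical axis from 0, 1 bar per library; grey dKO, blue tKO 1, red tKO 2), with a dashed line at 50% of the dKO mean. The tKO 2 bar lies near the dashed line in every panel and the tKO 1 bar closer to the dKO bars, farthest from them for TGFBR2 (79.9% of dKO), XPC (115.9%) and RASSF1 (88.7%).

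Among the kidney cancer suppressors, VHL was at 112.9 and 120.7 CPM in dKO 1 and dKO 2, at 116.6 in tKO 1 and at 52.8 in tKO 2. The tKO 1 value fell between the dKO values, and the tKO 2 value was 45.2% of dKO (interval 42.0 to 48.7), the lowest share of the 9 and below 50%. PBRM1 was at 192.0 and 178.2 CPM in the dKO libraries, 199.2 in tKO 1 and 97.7 in tKO 2. Its share of 52.8% in tKO 2 (49.9 to 55.7) included 50% within counting error. SETD2 was at 176.9 and 154.2 CPM in the dKO libraries, 181.6 in tKO 1 and 92.8 in tKO 2, a share of 56.1% (52.9 to 59.3). The dKO libraries themselves differed most for this gene among the 9, with an SD of 16.1 CPM around a mean of 165.5.

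RASSF1, the Hippo scaffold, was at 18.99 and 18.09 CPM in the dKO libraries, 16.4 in tKO 1 and 10.8 in tKO 2. Its 58.1% in tKO 2 rested on 174 counts, the fewest of the 9 genes, and the interval of 48.9 to 68.7 was correspondingly wide. TGFBR2, the TGF-beta receptor, was at 20.9 and 20.3 CPM in the dKO libraries, 16.4 in tKO 1 and 11.8 in tKO 2. It was the gene of the 9 for which the tKO libraries were closest, with tKO 2 at 71.5% of tKO 1, and tKO 1 itself was at 79.9% of dKO (69.2 to 92.0).

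FANCD2, of crosslink repair, was at 155.0 and 160.3 CPM in the dKO libraries, 157.3 in tKO 1 and 95.8 in tKO 2. Its 60.8% (57.4 to 64.3) was the highest share of the 9 in tKO 2, although VHL, the lowest, is its neighbour but 1 on the chromosome. XPC, the damage sensor, was at 69.4 and 71.3 CPM in the dKO libraries, 81.5 in tKO 1 and 37.3 in tKO 2. Its level in tKO 1, 115.9% of dKO (108.4 to 123.9), was the highest of the 9, and its 53.0% in tKO 2 (48.4 to 57.9) was near the median.

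RHOA and CTNNB1 were the most abundant of the 9. RHOA was at 497.5 and 514.7 CPM in the dKO libraries, 512.5 in tKO 1 and 269.4 in tKO 2, that is 53.2% of dKO (51.5 to 55.0). CTNNB1 was at 602.7 and 592.3 CPM in the dKO libraries, 637.1 in tKO 1 and 273.1 in tKO 2, and its 45.7% (44.2 to 47.2) was below 50%. These counts were the deepest, from 4352 to 11044 per library, and their intervals the narrowest.

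Set against 50% of the dKO level, 8 of 9 genes lay between 40% and 60%. The counting interval held 50% for 4 genes (XPC, TGFBR2, RASSF1 and PBRM1), lay above it for FANCD2, SETD2 and RHOA, and lay below it for VHL and CTNNB1. The 9 genes were thus not at a single common share within counting error. The SD of their log2 ratio to the dKO mean was 0.148 in tKO 2 and 0.164 in tKO 1. The log2 ratio of dKO 1 to dKO 2, without a mean, had an SD of 0.0926 over the same genes. These measures are unlike, so no excess spread is read from them. The genes did not keep the same order in the tKO libraries: XPC was highest in tKO 1 and FANCD2 in tKO 2. With tKO 1 in place of dKO as the base, the shares in tKO 2 ran from 42.9% (CTNNB1) to 71.5% (TGFBR2), with a median of 51.1%.

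**Figure D2:**
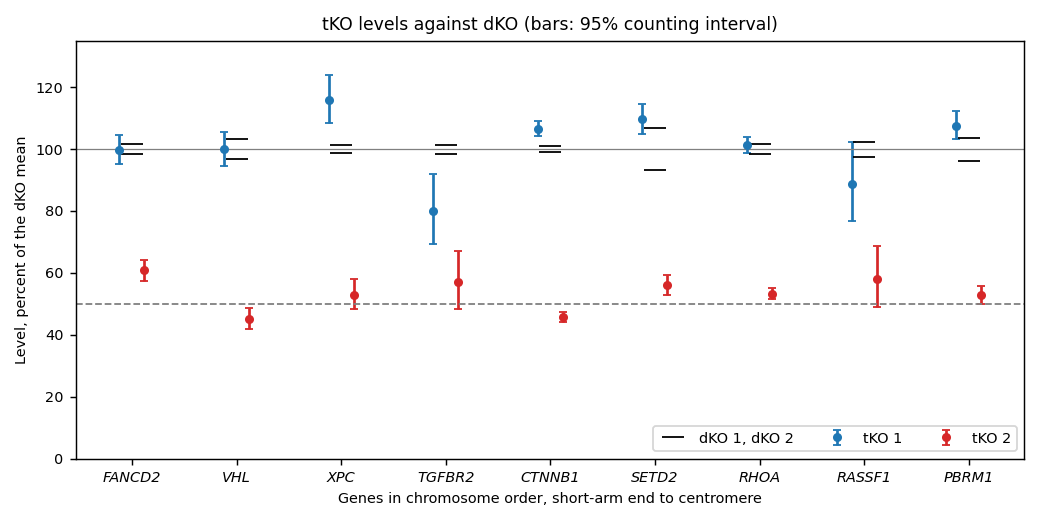
Level of each gene in tKO 1 (blue) and tKO 2 (red) as percent of the dKO mean, with 95% counting intervals; black ticks are dKO 1 and dKO 2, the solid line is 100% and the dashed line 50%. tKO 2 runs from 45.2% to 60.8% and tKO 1 from 79.9% to 115.9%, with no overlap between the libraries. The genes were selected for lower levels in tKO 2, so this separation is a description only.

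tKO 1 against dKO was tested with limma over 14902 genes. The lone tKO library was assumed to vary as the dKO libraries do, so the test compares tKO 1 with the dKO pair rather than the genotypes. None of the 9 genes was differentially expressed (DE, adjusted p below 0.05 and absolute log2 fold change above 1), 0 passed at an unadjusted p below 0.05, and 0 were DE with edgeR or DESeq2. The background was 175 DE genes, 1.17% of those tested. The log2 fold changes ran from -0.32 ± 0.18 (SE) for TGFBR2, with an adjusted p of 0.563, to 0.21 ± 0.12 for XPC, with an adjusted p of 0.577. VHL was at -0.001 ± 0.11 (adjusted p = 0.999) and FANCD2 at -0.003 ± 0.11 (adjusted p = 0.997). The median over the 9 genes was 0.018, against 0.004 over all genes tested. A p that misses the threshold does not show equal levels. A fall to 50%, which is -1 on the log2 scale, lay outside the counting intervals of all 9 genes in tKO 1. Those intervals cover counting error only and not the variation between libraries, which 1 tKO library cannot give.

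With both tKO libraries together against dKO, the log2 fold changes of the 9 genes lay between -0.35 ± 0.28 (SE, SETD2) and -0.57 ± 0.33 (VHL), with a median of -0.45 against -0.001 over all genes. TGFBR2 was at -0.56 ± 0.20, CTNNB1 at -0.52 ± 0.34, RASSF1 at -0.47 ± 0.23, RHOA at -0.45 ± 0.27, PBRM1 at -0.41 ± 0.30, FANCD2 at -0.36 ± 0.22 and XPC at -0.35 ± 0.33. These averages describe neither tKO library, since tKO 1 was near dKO and tKO 2 near 50% of it. In this comparison 2 of 15136 genes were DE (0.0132%), BAP1 and SERPINB9, and 0 of the 9 genes. limma gave 1 of the 9, TGFBR2, an unadjusted p below 0.05, and edgeR and DESeq2 called 0 of the 9. Because tKO 2 entered this fit, nothing is read from these counts. Without tKO 2 the fit is the one described above, and the values of XPC, CTNNB1, SETD2, RHOA and PBRM1 then turned positive.

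Per kilobase of exon, the order of the levels in dKO was RHOA at 105.3 RPKM, CTNNB1 at 50.8, VHL at 23.4, PBRM1 at 19.2, XPC at 15.2, FANCD2 at 13.3, SETD2 at 11.6, RASSF1 at 5.03 and TGFBR2 at 3.01. No pair of neighbours in this order overlapped between the dKO libraries. In tKO 2 the levels were 56.1 RPKM for RHOA, 23.2 for CTNNB1, 10.6 for VHL, 10.1 for PBRM1, 8.08 for FANCD2, 8.04 for XPC, 6.49 for SETD2, 2.92 for RASSF1 and 1.72 for TGFBR2. The order was thus kept except that FANCD2 and XPC, neighbours in dKO, became nearly equal. Lengths are unions of all annotated exons, so genes with long rarely used exons are understated.

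The stretch that holds the 9 genes ran from CNTN4 (start 2140497) to ARHGEF3 (end 57113357) on chromosome 3. It was set as the run of genes with the largest summed fall in tKO 2, among tested genes with a mean log2-CPM above 1. Its 303 genes had a median of 52.1% of dKO in tKO 2 and 100.1% in tKO 1. Among the 272 with at least 100 counts in each dKO library, the lower and upper quartiles were 46.8% and 55.9% in tKO 2, and 71.7% lay within the range of the 9 genes. At the short-arm end, CHL1 (end 451100) was at 112.9% in tKO 2, the nearest gene outside the stretch with a mean log2-CPM above 1. CNTN4 and TRNT1 just inside were at 56.5% and 44.3%. CNTN4 had only 54 and 42 counts in the dKO libraries, 82 in tKO 1 (192% of dKO) and 24 in tKO 2, so this edge is loosely placed. At the other end, TASOR and ARHGEF3 just inside were at 47.7% and 46.5%, and IL17RD and APPL1 just outside at 98.9% and 119.3%. The 431 tested genes of chromosome 3 outside the stretch with a mean log2-CPM above 1 had a median of 96.6% in tKO 2 and 99.5% in tKO 1.

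**Figure D3:**
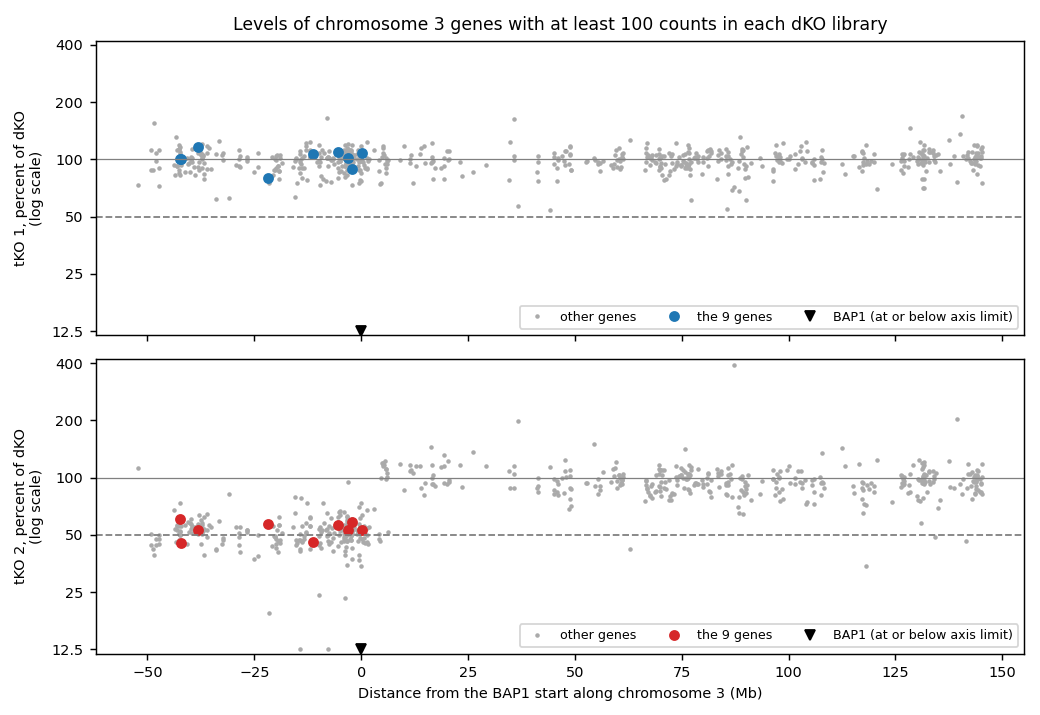
Genes of chromosome 3 with at least 100 counts in each dKO library, by distance from the BAP1 start in Mb (horizontal) and by level in tKO 1 (upper) and tKO 2 (lower) as percent of the dKO mean on a log scale; points beyond an axis limit are drawn at it. Coloured points are the 9 genes and the black triangle is BAP1, which is below the axis. In tKO 2 the genes from the left up to shortly past BAP1 gather near 50%, apart from CHL1 at the far left, and the rest of the chromosome near 100%, whereas tKO 1 stays near 100% throughout.

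The nearest expressed genes on either side of the 9 were 17 genes with a median of 55.0% in tKO 2 and 104.0% in tKO 1, and they spread more widely than the 9 in tKO 2. BRK1, between FANCD2 and VHL, was at 51.8% in tKO 2, while TATDN2 on the far side of VHL was at 46.3% and EMC3-AS1 before FANCD2 at 73.5%. GNL3 and UQCC5, which overlap PBRM1 on the opposite strand, were at 52.9% and 63.5%. TUSC2 and ZMYND10 beside RASSF1 were at 55.0% and 53.5%, KIF9 and NBEAL2 beside SETD2 at 49.9% and 62.4%, and TRAK1 and ZNF621 beside CTNNB1 at 45.2% and 62.2%. Beside XPC, TMEM43 and LSM3 were at 55.9% and 57.1%, while AZI2 beside TGFBR2 was at 50.1% and GPX1 beside RHOA at 57.1%. The lowest neighbour was GADL1 beside TGFBR2, with 188 and 184 counts in the dKO libraries, 124 in tKO 1 and 32 in tKO 2 (19.4%). The highest was TCTA, which overlaps RHOA on the opposite strand, with 449 and 329 counts in the dKO libraries, 393 in tKO 1 and 325 in tKO 2 (94.3%). TCTA therefore did not share the lower level of RHOA in tKO 2 although the genes overlap.

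A list of 28 further genes of 3p inside the stretch, most with a known role in cancer, gave 24 tested genes, of which 0 were DE and 0 had an adjusted p below 0.05 in either comparison. With both tKO libraries against dKO, 2 of all 15136 tested genes had an adjusted p below 0.05 by limma, so the 0 is not read as unchanged levels. The 24 genes too lie in the stretch that tKO 2 defined. Their median was 50.6% in tKO 2 and 102.1% in tKO 1, and 24 of 24 were below both dKO libraries in tKO 2 against 8 of 24 in tKO 1, where 36.9% and 35.2% of all tested genes were. RARB, a retinoic acid receptor, was the lowest in tKO 2 at 21.5%, from 9 and 12 counts in dKO, 15 in tKO 1 and 2 in tKO 2, too few to fix the share. Of 33 cancer genes on chromosome 3 outside the stretch, 30 were tested, 0 were DE, and their median was 100.3% in tKO 2 and 96.2% in tKO 1. They ran in tKO 2 from 68.9% for BCL6 to 215.8% for ETV5, and the latter had only 26 and 45 counts in dKO, 31 in tKO 1 and 68 in tKO 2.

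The partners and targets of the 9 genes were taken from 12 lists, with 202 distinct genes tested. With both tKO libraries against dKO, 0 of 202 had an adjusted p below 0.05 by limma, where 2 of all 15136 tested genes did. With so few calls over all genes, the 0 here and for each list below is not read as unchanged pathways. At an unadjusted p below 0.05 limma gave 0 higher and 5 lower. Of these 5, 2 lie in the 3p stretch that tKO 2 defined. Over all 15136 tested genes, 538 had an unadjusted p below 0.05, so the 5 are not read as an effect on the pathways. edgeR and DESeq2 called 0 of the 202 genes at an adjusted p below 0.05. In tKO 1 against dKO, 4 of 202 had an adjusted p below 0.05 (2.91% of all tested genes did). These were CUL2, PFKFB3 and CCND1, which were lower, and ID3, which was higher. Of the 193 genes outside the 3p stretch and outside a stretch on 10p described below, the median was 99.7% in tKO 2 and 101.1% in tKO 1, and 80 (41.5%) were below both dKO libraries in tKO 2 and 56 (29.0%) in tKO 1, near the 36.9% and 35.2% of all tested genes. The tKO 2 values of these lists stem from the contrast that chose the 9 genes and are given without a test.

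**Figure D4:**
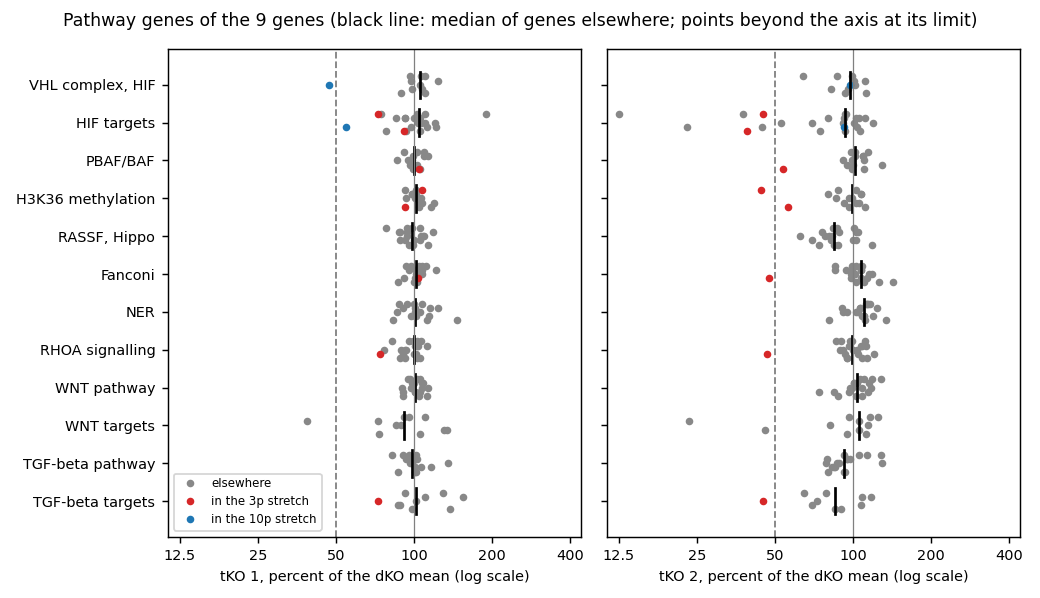
Each point is a gene of a pathway list, placed by its level in tKO 1 (left) or tKO 2 (right) as percent of the dKO mean on a log scale; red points lie in the 3p stretch, blue points in the 10p stretch, and black lines are medians of the remaining genes. CA12, at 5.79% in tKO 2, is drawn at the axis limit. Most points lie near 100% in both libraries, the red points lie near 50% in tKO 2 only, and the blue points near 50% in tKO 1 only.

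VHL works with elongins, a cullin and RBX1 to mark HIF for degradation. Of the 11 tested genes of this complex and of HIF, 0 passed in the comparison of both tKO libraries. CUL2, the cullin that carries VHL, had 1685 and 1644 counts in dKO, 696 in tKO 1 and 1436 in tKO 2. It was thus at 47.0% of dKO in tKO 1 (log2 fold change -1.09, limma adjusted p = 1.01e-15) and at 97.3% in tKO 2, the mirror image of VHL, which was at 99.9% in tKO 1 and 45.2% in tKO 2. CUL2 lies in a stretch of 116 genes on the short arm of chromosome 10, from ZMYND11 to ZNF37A, whose median was 50.5% in tKO 1 and 96.7% in tKO 2. ELOB, ELOC and RBX1 were at 99.2%, 101.1% and 95.2% in tKO 2. HIF1AN, the asparagine hydroxylase of HIF, and HIF1A, the alpha subunit itself, had the smallest p-values outside the stretches in each direction, with adjusted p = 0.996 by limma, at 111.5% and 92.9% in tKO 2. The lowest of the list in tKO 2 was EPAS1, the HIF-2 alpha subunit, with 263 and 330 counts in dKO, 255 in tKO 1 and 169 in tKO 2 (64.3%).

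Of 24 HIF target genes 23 were tested, 0 passed for both tKO libraries together, and 1 passed in tKO 1, PFKFB3 on 10p at 54.8% (limma adjusted p = 1.84e-09). Over the 20 targets outside both stretches the median was 92.6% in tKO 2 and 104.4% in tKO 1. In tKO 2, 12 of 20 were below both dKO libraries (36.9% of all tested genes were) and 4 of 20 above both. The share of all tested genes above both was not computed. BHLHE40, a transcriptional repressor, was the target with the smallest p-value, and it lies in the 3p stretch itself. It had 261 and 263 counts in dKO, 169 in tKO 1 and 104 in tKO 2. PFKFB4, also in the stretch, was at 38.9% in tKO 2. Outside the stretches the smallest p-values were those of SLC2A1, a glucose transporter at 119.7% in tKO 2, and MXI1, a MYC antagonist at 79.6%. Some other targets, singled out after their values were seen, had their lowest value in tKO 2. CA12, a carbonic anhydrase, had 23 and 16 counts in dKO, 33 in tKO 1 and 1 in tKO 2, and SLC2A3, another glucose transporter, had 80 and 88, 91 and 17 in the same order. VEGFA, the angiogenic growth factor, was at 92.4% in tKO 2.

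The PBAF and BAF remodellers, to which PBRM1 belongs, gave 15 tested genes with 0 passing. SMARCC1, a core subunit whose gene also lies in the 3p stretch, was at 53.8% in tKO 2 and 104.3% in tKO 1. The other 14 had a median of 101.7% in tKO 2. ARID2 and BRD7, which are specific to PBAF like PBRM1, were at 98.5% and 101.8%. DPF2 and SMARCA2 had the smallest p-values outside the stretch in each direction, at 114.5% and 99.1% in tKO 2. Among 15 genes of H3K36 methylation, the mark that SETD2 completes, 0 passed. SETD5 and SETMAR lie in the stretch and were at 56.0% and 44.2% in tKO 2, and the other 13 had a median of 98.7%. SUPT6H, an elongation factor, and PSIP1, a reader of the mark, were at 110.9% and 80.2%.

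Of 23 genes of the RASSF family and Hippo pathway 20 were tested and 0 passed. RASSF3, a relative of RASSF1, had 1290 and 1211 counts in dKO, 976 in tKO 1 and 843 in tKO 2, an unadjusted limma p of 0.0449 and an adjusted p of 0.996. The median of this list was 84.3% in tKO 2 and 98.1% in tKO 1. LATS1, a kinase of the pathway, was at 102.7% in tKO 2. In the Fanconi anaemia pathway of FANCD2, 22 genes were tested and 0 passed. WDR48, a cofactor of the enzyme that deubiquitinates FANCD2, lies in the stretch and was at 47.5% in tKO 2, and the other 21 had a median of 106.9%. RAD51C, a recombination factor, was at 107.2% and the helicase BRIP1 at 85.1%. In nucleotide excision repair, the pathway of XPC, 19 genes were tested and 0 passed, with a median of 110.1% in tKO 2 and 100.8% in tKO 1. RAD23B, the partner of XPC, was at 90.6% in tKO 2, and GTF2H2, a subunit of TFIIH, at 133.7% from 55 and 48 counts in dKO, 67 in tKO 1 and 61 in tKO 2.

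Among 23 genes of RHOA signalling 21 were tested and 0 passed. ARHGEF3, an exchange factor, is the last gene of the 3p stretch and was at 46.5% in tKO 2. RHOC, the closest relative of RHOA that was expressed, had 544 and 533 counts in dKO, 395 in tKO 1 and 411 in tKO 2, and was thus below both dKO libraries in both tKO libraries, with an adjusted p of 0.996 by limma. RHOB was at 0 counts in all 4 libraries, and DIAPH1, a formin driven by RHOA, was at 108.2% in tKO 2. Of the WNT pathway 19 genes were tested and 0 passed, with a median of 103.0% in tKO 2. JUP, or plakoglobin, the close relative of beta-catenin, had 872 and 812 counts in dKO, 682 in tKO 1 and 551 in tKO 2, and APC, the scaffold that promotes degradation of beta-catenin, was at 118.5% in tKO 2.

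Of 11 WNT target genes 0 passed for both tKO libraries, with a median of 105.1% in tKO 2 and 91.4% in tKO 1. AXIN2, a feedback inhibitor, had 253 and 219 counts in dKO, 192 in tKO 1 and 201 in tKO 2. SP5, a transcription factor, had the smallest p-value of the list, with 26 and 32 counts in dKO, 10 in tKO 1 and 6 in tKO 2, a log2 fold change of -1.51 ± 0.39 (SE, limma adjusted p = 0.996). TNFRSF19, a receptor, had the smallest p-value among targets that were higher, at 115.6% in tKO 2. CCND1, or cyclin D1, was at 73.0% in tKO 1 (limma adjusted p = 0.0373) and at 112.1% in tKO 2.

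Of 18 genes of the TGF-beta pathway 0 passed, with a median of 92.0% in tKO 2. TGFBR1, the type I receptor that pairs with TGFBR2, had 2408 and 2450 counts in dKO, 2517 in tKO 1 and 1831 in tKO 2, or 85.0%. BMPR2, the type II receptor for bone morphogenetic proteins, had 1925 and 1846 counts in dKO, 1450 in tKO 1 and 1333 in tKO 2, with an unadjusted limma p of 0.0326 and an adjusted p of 0.996. TGFB3, a ligand, was at 129.7% in tKO 2. Of 12 TGF-beta targets 10 were tested and 0 passed for both tKO libraries. SKIL, a feedback repressor of the pathway, was at 72.5% in tKO 2 and 101.5% in tKO 1. ID3, an inhibitor of DNA binding, had 1542 and 976 counts in the dKO libraries, 1732 in tKO 1 and 1306 in tKO 2. It was at 154.7% in tKO 1 (limma adjusted p = 5.31e-06), although its dKO libraries stood well apart.

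The genes most like the 9 in pattern were sought among 10888 genes not annotated to the stretch. These had at least 100 counts in each dKO library. Nearness was the Euclidean distance of their log2 ratios in the 4 libraries from the median of the 9. AMOT, an angiomotin gene on chromosome X, was nearest at a distance of 0.0357, with 1545 and 1524 counts in dKO, 1355 in tKO 1 and 717 in tKO 2. ENSG00000227285.1 followed at 0.0919 with 120, 112, 100 and 52 counts in the same order. No symbol or position was found for it, so whether it lies in the stretch is not known. ST6GAL1, a sialyltransferase on the long arm of chromosome 3, was at 0.156 with 2011, 2081, 1759 and 885 counts. A likeness over 4 libraries, of which 1 stands apart, is a description only.

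Few stranded reads of the 9 genes lay in the other orientation, and the genes named as their copies had few counts. Reads in the sense orientation made up between 0% and 1.97% of the stranded reads of each of the 9 genes in any library. This share does not count reads that become ambiguous when strand is ignored. With strand ignored, the dKO 1 counts fell from 1272 to 1087 for XPC and from 2840 to 2543 for FANCD2. They changed less for the other genes. FANCD2P2, a pseudogene of FANCD2 within the stretch, had 0 counts, and VHLL, the VHL-like gene on chromosome 1, had at most 4 counts in a library.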

How the data were processed

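Polyadenylated RNA of 4 libraries was sequenced after stranded library preparation. Per the submitters' processing notes and the methods of the study, adapters were trimmed with cutadapt (1.12) through Trim Galore (0.4.4), ribosomal reads were removed with Bowtie (1.2) and the rest was aligned to GRCh37 with STAR (2.5.2b), allowing 6 mismatches and 20 loci. The authors deposited raw counts of uniquely mapped reads per gene, with GENCODE release 19 identifiers and with no normalization. The antisense column was used here, the orientation of the kit; the sense column held 4.01% to 4.24% of stranded reads. Of 57820 identifiers, 55538 were matched to GENCODE release 44 on GRCh37.

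Groups were taken from the genotype labels. The filter kept genes exceeding a CPM of 0.5 in 2 or more libraries. log2-CPM (prior count 2, TMM by edgeR 4.0.16) was fitted with genotype as the only term in limma (3.58.1, R 4.3.3) with a mean-variance trend, with Benjamini-Hochberg adjustment across all tested genes. DE means an adjusted p below 0.05 with an absolute log2 fold change greater than 1. The filter, TMM, the model and the thresholds follow the study. The fit was tested on simulated data with large changes alike in both tKO libraries, a setting that does not cover tKO libraries that differ. DESeq2 (1.42.0), edgeR's quasi-likelihood test and other alternatives are treated in the closing section. With 2 libraries per group, p-values rest only on the spread between these libraries, with each gene's variance drawn towards a trend over all genes. In the fit of tKO 1, that spread is between the dKO libraries alone. At this depth 3 counts correspond to 0.163 to 0.187 CPM, and intervals cover counting error only.

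The 9 genes, the lists and the tests were chosen with earlier results of these data known. Named beside the 9 genes were BAP1, RING1 and RNF2, the nearest expressed neighbours, the edges of the stretch, the lowest and highest of the chromosome 3 lists, per pathway list the higher and the lower gene of smallest p-value and any close relative of one of the 9, and the 3 genes nearest in pattern. Some genes that this rule names are not reported here. Other genes were singled out after their values were seen. The replicate numbers 1 and 2 share only a number: the correlation of same-numbered deviations was 0.0581.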

Additional observations from a re-analysis of the deposited data

How the results depend on the processing

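Over 6 alternatives (RLE size factors, library totals, TMM without chromosomes 3 and 10, unstranded counts, and leaving out either dKO library), the shares of dKO of the 9 genes ran from 78.7% to 117.8% in tKO 1 and from 43.8% to 61.8% in tKO 2, and the medians from 99.6% to 103.0% and from 52.6% to 54.8%. In tKO 1 against dKO, 99 of 99 alternative values of the 9 genes stayed on the same side of the threshold, with none past it.

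The comparison of both tKO libraries rests on which of them is in it. Without tKO replicate 2 the log2 fold changes of XPC (0.21), CTNNB1 (0.093), SETD2 (0.14), RHOA (0.018) and PBRM1 (0.11) turned positive. Without tKO replicate 1 the fit is tKO 2 against dKO, the contrast on which the 9 genes were selected, so that 9 of 9 passing follows from the selection; they passed an adjusted p of 0.05, at -0.72 (FANCD2) to -1.14 (VHL), with XPC at -0.91, CTNNB1 at -1.13, SETD2 at -0.83, RHOA at -0.91 and PBRM1 at -0.92, and VHL and CTNNB1 were DE. Leaving out 1 library moved the DE genes among the 9 from 0 to between 0 and 2, the pathway genes past the adjusted p from 0 to between 0 and 22 and the DE genes among all tested from 2 to between 0 and 480. Those 2 DE genes became 1 with edgeR, 25 with DESeq2, 1 without a trend, 0 without a filter, 1 at CPM above 5 and 1 with unstranded counts. For tKO 1 alone the 175 DE genes became 71 with DESeq2, 2 without a trend, 0 without a filter and 82 at CPM above 5, and the 4 pathway genes became 2, 0 and 0 in the first 3 of these. The cause was not tested.

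A fit that blocks on the replicate number gave 13 DE genes in place of 2, and 0 of the 9 genes had an adjusted p below 0.05. At an unadjusted p below 0.05 it gave 3 of the 9 (TGFBR2, RASSF1 and VHL) in place of 1. At the adjusted p, the block changed no call among the 9 genes or the pathway genes.

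Depth limits RASSF1 and TGFBR2 most, with 174 and 190 counts in tKO 2.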
